A study of Tachysurus vachellii and Tachysurus fulvidraco x Tachysurus vachelli and Tachysurus fulvidraco with 9 samples.

Results

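Among the miRNAs of the catfish liver libraries, tni-miR-375 and miR-7 are known from the endocrine pancreas and ccr-miR-217 from the exocrine pancreas. Members were chosen by name: 4 of the 888 entries of the deposited table, which are tni-miR-375, ccr-miR-217, dre-miR-7b_R+3 and the opposite arm dre-mir-7b-p3_1ss21TC. Small RNA was sequenced from livers of juvenile fish of 3 lines, with 3 libraries each. The lines were the hybrid yellow catfish Huangyou-1 (P. fulvidraco mothers crossed with P. vachelli fathers) and its parent species P. vachelli and P. fulvidraco. Per the labels, all lines came from artificial fertilization after hormone injection and were reared alike, each in 3 aquaria. The labels do not say whether a library is 1 fish, 1 aquarium or a pool. The p-values therefore rest on the spread between these libraries, which may be technical.

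In vertebrates miR-375 is abundant in islet cells, where it restrains insulin secretion in mammals and is needed for an intact islet in zebrafish. This miRNA is also known from the pituitary and gut. miR-7 is shared by islet cells and brain. miR-217 is made by the enzyme-secreting acinar cells, from a locus that also holds miR-216a and miR-216b. In many teleosts exocrine pancreas is scattered through the mesentery and, in some species, runs into the liver along the portal vein, while much of the islet tissue is gathered in separate bodies.

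The mature sequences of the members are shown first because the comparison of islet with acinar miRNAs, and of the arms and paralogues of miR-7, rests on which molecule was counted. They are given 5′ to 3′ as the table has them, with T for U, and capitals mark the seed, bases 2 to 8, which pairs with targets.
tni-miR-375: tTTGTTCGttcggctcgcgtta
ccr-miR-217: tACTGCATcaggaactgattgga
dre-miR-7b_R+3: tGGAAGACttgtgattttgttgtt
dre-mir-7b-p3_1ss21TC: cAACAAATcacggtctgcccca
The table also held fru-miR-216b, the neighbour of miR-217, and ssa-miR-7a-5p, a paralogue of miR-7b, whose values are given below beside the members.
fru-miR-216b: tAATCTCTgcaggcaactgtga
ssa-miR-7a-5p: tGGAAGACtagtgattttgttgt
No 2 of the members share a seed. The seed of tni-miR-375 and that of ccr-miR-217 were each found on 1 of the 728 distinct sequences. dre-miR-7b_R+3 and ssa-miR-7a-5p carry the same seed and, over the 23 bases that both have, differ by T10A, counted from the 5′ end of dre-miR-7b_R+3, so that reads of the paralogues are told apart by a single base.

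Values are the authors' normalized counts per mature sequence, and log2 fold changes were fitted on log2 of the value plus 1 with limma over all 278 sequences at 10 or more in at least 3 of the 9 libraries. All 4 members passed this filter and stood above it in every library. An estimated 5737232 to 8579462 reads lay behind a library, and miR-122, the defining miRNA of hepatocytes, was present at summed values of 1763476 to 2787558. The members were far lower, from 63 reads for dre-mir-7b-p3_1ss21TC in 1 P. vachelli library to 8795 reads for ccr-miR-217 in 1 hybrid library.

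tni-miR-375 stood at 1214, 4442 and 1111 in hybrid libraries 1 to 3, at 993, 566 and 424 in P. vachelli libraries 1 to 3, and at 633, 2107 and 2298 in P. fulvidraco libraries 1 to 3. Hybrid library 2 was the highest of all 9, each hybrid library lay above each P. vachelli library, and P. fulvidraco overlapped both other lines. The lines averaged 2256 ± 1894 in hybrid libraries, 661 ± 296 in P. vachelli and 1679 ± 911 in P. fulvidraco (SD, n = 3 each). Against P. vachelli the hybrid had a log2 fold change of 1.55 (SE 0.62, 95% interval 0.15 to 2.95), which missed the threshold of 0.05 (limma, adjusted p = 0.0802). Scaling the libraries to equal totals, which moved the median of all sequences to 0.35, gave 1.90 (adjusted p = 0.0355), and leaving out hybrid library 2 gave 0.91 (adjusted p = 0.251). Leaving out P. fulvidraco library 1, which enters only through the shared spread, kept 1.55 with an adjusted p of 0.0420. Against P. fulvidraco the hybrid gave 0.32 (SE 0.62, 95% interval -1.08 to 1.72, adjusted p = 0.775), which turned to -0.32 without hybrid library 2 and to -0.28 without P. fulvidraco library 1. P. vachelli against P. fulvidraco gave -1.23 (SE 0.62, adjusted p = 0.127). Without P. fulvidraco library 1, the lowest of its line, it gave -1.83 (adjusted p = 0.0262).

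ccr-miR-217, the acinar member, was the most abundant of the 4. Its values were 8509, 7485 and 4947 in hybrid libraries 1 to 3, 7271, 3842 and 3137 in those of P. vachelli, and 4657, 3807 and 8020.2 in those of P. fulvidraco. All 3 lines overlapped. Hybrid library 1 was the highest of all 9 and P. vachelli library 3 the lowest, and each parent line held libraries both below and above the lowest hybrid one. The means were 6980.5 ± 1834 in hybrid libraries, 4750.02 ± 2212 in P. vachelli and 5495 ± 2228 in P. fulvidraco (SD, n = 3 each). The hybrid gave log2 fold changes of 0.62 against P. vachelli (SE 0.36, 95% interval -0.19 to 1.42, adjusted p = 0.212) and 0.38 against P. fulvidraco (SE 0.36, adjusted p = 0.524). P. vachelli against P. fulvidraco gave -0.23 (SE 0.36, 95% interval -1.04 to 0.58, adjusted p = 0.605) and changed sign without P. vachelli library 3 (0.02) or P. fulvidraco library 3 (0.08). With every library in the fit limma called no difference in miR-217, and the interval for the hybrid against P. vachelli reached up to a 2.68-fold higher level. The values depended on scaling. With equal totals the hybrid against P. vachelli gave 0.96 (limma, adjusted p = 0.0502) and P. vachelli against P. fulvidraco -0.54 (adjusted p = 0.214). Without P. vachelli library 1, the highest of its line, the hybrid was higher than P. vachelli by 0.97 (adjusted p = 0.0458).

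dre-miR-7b_R+3 is the 5′ arm of miR-7b. It stood at 500.1, 558 and 458 in hybrid libraries 1 to 3, at 778, 772 and 519.6 in P. vachelli and at 464, 540.5 and 640.03 in P. fulvidraco. P. vachelli libraries 1 and 2 were the highest of all, and its library 3 lay within the range of the other lines. The means were 505 ± 50.2 in hybrid libraries, 690.1 ± 148 in P. vachelli and 548 ± 88.3 in P. fulvidraco (SD, n = 3 each). The hybrid gave -0.43 against P. vachelli (SE 0.19, 95% interval -0.86 to 0.00332, adjusted p = 0.108) and -0.11 against P. fulvidraco (95% interval -0.54 to 0.32, adjusted p = 0.756), and P. vachelli against P. fulvidraco gave 0.32 (SE 0.19, adjusted p = 0.188) on the log2 scale. Without P. vachelli library 3, the hybrid was lower than P. vachelli, at -0.62 (adjusted p = 0.0240), and P. vachelli was higher than P. fulvidraco by 0.51 (adjusted p = 0.0383). With equal totals the hybrid against P. vachelli gave -0.08 (adjusted p = 0.781) and P. vachelli against P. fulvidraco 0.02 (adjusted p = 0.948). The hybrid against P. fulvidraco turned to 0.01 without P. fulvidraco library 3. Summing miR-7b with the other 5′ arm sequences of miR-7 turned the sign of each of these comparisons, to 0.14, 0.11 and -0.03 in the order given, because the sum takes in ssa-miR-7a-5p.

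dre-mir-7b-p3_1ss21TC, which the table names as the 3′ arm of the same precursor, was the only member with a call in the fit of all 9 libraries. It stood at 131, 107 and 131.8 in hybrid libraries, at 67.7, 78.1 and 102 in P. vachelli and at 180.3, 148.2 and 169 in P. fulvidraco. No 2 lines overlapped: P. fulvidraco was highest, the hybrid lay in the middle and P. vachelli was lowest. The means were 123 ± 13.7 in hybrid libraries, 82.6 ± 17.6 in P. vachelli and 166 ± 16.3 in P. fulvidraco (SD, n = 3 each). P. vachelli was lower than P. fulvidraco, with a log2 fold change of -1.01 (SE 0.19, adjusted p = 0.00167), which held under all 21 alternatives, from -1.31 to -0.88. The hybrid was higher than P. vachelli by 0.59 (SE 0.19, adjusted p = 0.0364), a call that held under 13 of 21 alternatives, with 0.93 (adjusted p = 0.00359) at equal totals. It was lost without hybrid library 1 or 3, without P. vachelli library 1 or 2, or without P. fulvidraco library 3 (adjusted p from 0.0526 to 0.109). It was also lost with a block for the replicate number (adjusted p = 0.0529), with only the 2 lines in the fit (0.0693) and with no filter on low values (0.0813). Against P. fulvidraco the hybrid gave -0.43 (SE 0.19, adjusted p = 0.147). On the log2 scale the hybrid lay 42.1% of the way from P. fulvidraco to P. vachelli, and it gave 0.08 against the mid-parent, the mean of the 2 parents on that scale (adjusted p = 0.753).

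**Figure D1:**
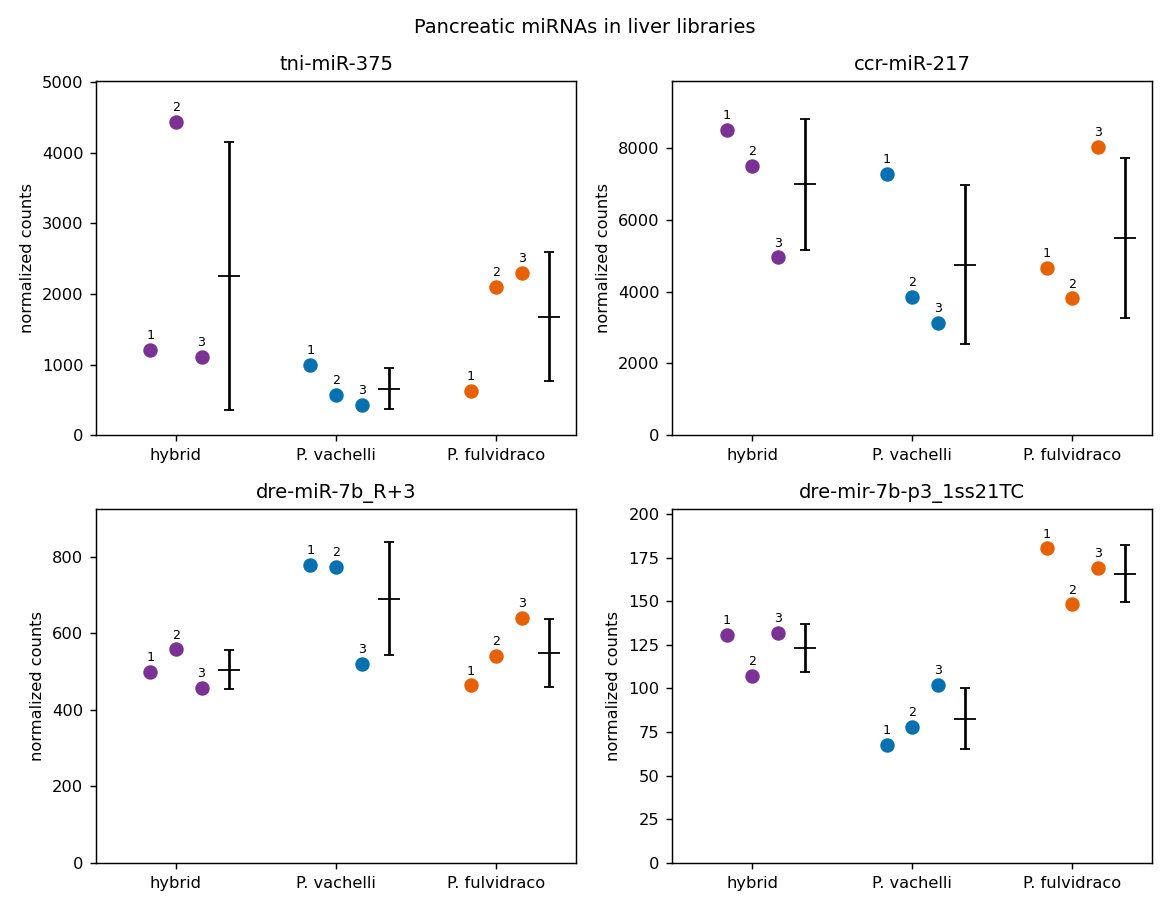
Normalized counts of the 4 members (vertical axes, linear from 0) in each library, by line, with the library number above each point and the mean ± SD of the 3 libraries as a black bar. tni-miR-375 ran from 424 to 4442 with hybrid library 2 on top, and only the lines of dre-mir-7b-p3_1ss21TC stood fully apart.

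Of the 4 members, 1 was called higher and 0 lower in the hybrid against P. vachelli, where 34.9% of all 278 sequences were called, 15.5% higher and 19.4% lower. Lines did not overlap for 2 members, where 46.8% of all sequences did not. In the hybrid against P. fulvidraco limma called 0 of 4, with 1 at an unadjusted p under 0.05, against 19.4% of all sequences, 12.9% higher and 6.47% lower. Lines did not overlap for 1 member, against 36.3% of all. In P. vachelli against P. fulvidraco 1 of 4 was called lower and 0 higher, where 51.4% of all were called, 30.9% higher and 20.5% lower. Lines did not overlap for 1 member, against 59.4% of all. Against the mid-parent limma called 0 of 4, with 0 at an unadjusted p under 0.05, where 18.7% of all were called, 10.1% higher and 8.63% lower. The log2 fold changes there were 0.94 for tni-miR-375, 0.50 for ccr-miR-217 and -0.27 for dre-miR-7b_R+3, with adjusted p of 0.231, 0.262 and 0.262. The split of calls over all sequences depended on scaling. In the hybrid against P. vachelli 43 were higher and 54 lower as deposited, and 90 higher and 26 lower with equal totals. In P. vachelli against P. fulvidraco 86 were higher and 57 lower as deposited, and 52 higher and 88 lower with equal totals. Against the mid-parent 28 were higher and 24 lower as deposited, and 58 higher and 8 lower with equal totals. The median log2 fold change of the members was 0.60, 0.11 and -0.62 in the 3 comparisons of lines, beside -0.01, 0.06 and -0.05 over all sequences. The comparisons share libraries, since each line enters 2 of the 3. In bulk liver, fewer cells that make a miRNA and less of the miRNA per cell cannot be told apart. Which cells the reads of the members came from was not tested.

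**Figure D2:**
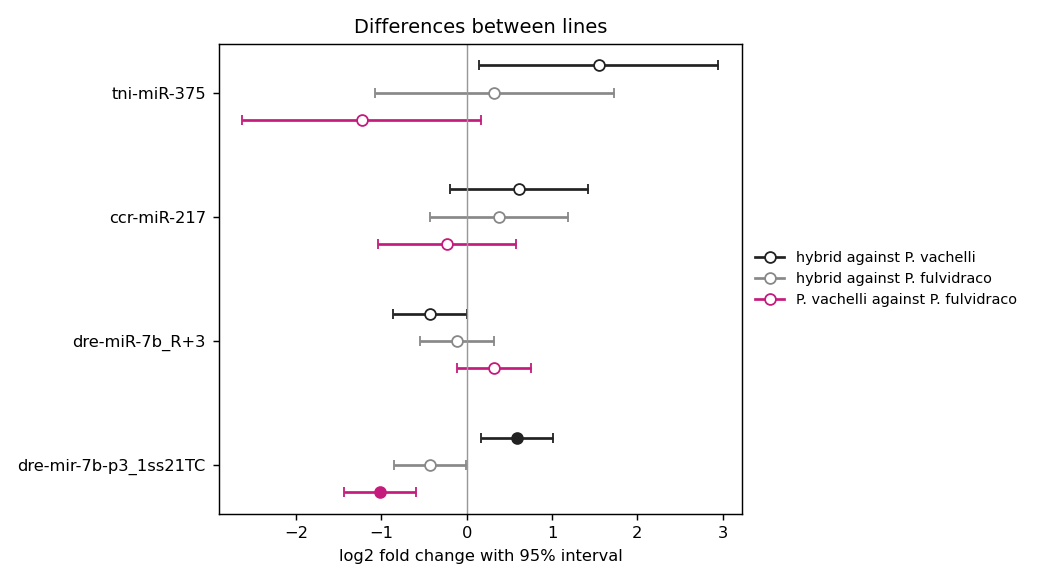
Log2 fold changes (horizontal axis) of each member in the 3 comparisons of lines, with 95% intervals from limma over all 9 libraries; filled points are past an adjusted p of 0.05. The filled points are those of dre-mir-7b-p3_1ss21TC at 0.59 and -1.01, and the widest intervals are those of tni-miR-375.

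The members varied to different degrees among libraries of the same line, which is given here as a description. The SD of tni-miR-375 about the line means was 0.95 on the log2 scale, the 12th highest of 278 sequences, whose median was 0.25. It exceeded that of each of the 50 sequences nearest to it in level. Its highest library was 4.0-fold above its lowest in hybrid libraries, 2.34-fold in P. vachelli and 3.63-fold in P. fulvidraco. ccr-miR-217 had an SD of 0.54, in place 39, and ranged over 1.72-fold within the hybrid, 2.32-fold within P. vachelli and 2.11-fold within P. fulvidraco. For these 2 members the counting error was at most 5.29% of a value. dre-miR-7b_R+3 and dre-mir-7b-p3_1ss21TC lay near the middle, with SDs of 0.25 (place 149) and 0.21 (place 174). Their counting error reached 5.03% and 12.6% of a value, and its part in their deviations was not tested.

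Whether the members rose and fell together was asked of the deviations of each library from the mean of its line, so that differences between lines do not enter. tni-miR-375 and ccr-miR-217 moved the same way in 7 of 9 libraries (Pearson's r = 0.47, exact permutation p = 0.222, adjusted over the 6 pairs 0.267; Spearman's rho = 0.48, exact permutation p = 0.199, adjusted 0.231). The exceptions were hybrid library 1, with miR-375 below and miR-217 above its line, and P. fulvidraco library 2, with the reverse. Without the 2 libraries farthest out for miR-375, hybrid 2 and P. fulvidraco 1, r was 0.55. Each P. vachelli library was above its line mean in both members or below it in both.

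tni-miR-375 gave a higher coefficient with dre-miR-7b_R+3, a difference between pairs that was not tested (r = 0.73, exact permutation p = 0.0417, adjusted 0.125; rho = 0.75, exact permutation p = 0.0139, adjusted 0.0417; r = 0.69 without hybrid 2 and P. fulvidraco 1). It ran against the opposite arm dre-mir-7b-p3_1ss21TC (r = -0.76, exact permutation p = 0.0139, adjusted 0.0833; rho = -0.83, exact permutation p = 0.0139, adjusted 0.0417; r = -0.74 without the same 2 libraries). Both relations passed the threshold after adjustment by rank and missed it by Pearson's r. The 2 arms of miR-7b themselves moved in opposite directions in 7 of 9 libraries (r = -0.79, exact permutation p = 0.0648, adjusted 0.130; rho = -0.78, exact permutation p = 0.0417, adjusted 0.0833), and r was -0.80 without P. vachelli 3 and P. fulvidraco 3. ccr-miR-217 gave r = 0.70 with dre-miR-7b_R+3 (exact permutation p = 0.134, adjusted 0.201; rho = 0.72, exact permutation p = 0.102, adjusted 0.153). That r was 0.49 without P. vachelli 1 and P. fulvidraco 3. With dre-mir-7b-p3_1ss21TC it gave r = -0.45 (exact permutation p = 0.389, adjusted 0.389; rho = -0.57, exact permutation p = 0.231, adjusted 0.231; r = -0.29 without those 2 libraries). All tests were two-sided, over every arrangement of the libraries within their lines.

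The sequences most like tni-miR-375 and ccr-miR-217 over the 9 libraries were not members. Of the 277 other sequences, the one closest to tni-miR-375 was the paralogue ssa-miR-7a-5p, with r = 0.97 both for levels and for deviations from the line means. It stood at 163, 937 and 132.99 in hybrid libraries 1 to 3, at 203.1, 65.6 and 22.5 in P. vachelli and at 42.8, 334 and 410.1 in P. fulvidraco. Its highest library was the hybrid library 2 that was highest for tni-miR-375, and within each line the libraries fell in the same order for both. miR-7a had the widest spread of all 278 sequences, with an SD of 1.63 about the line means. Its log2 fold changes were 2.0 in the hybrid against P. vachelli (95% interval -0.38 to 4.39, adjusted p = 0.174), 0.59 in the hybrid against P. fulvidraco (adjusted p = 0.756) and -1.41 in P. vachelli against P. fulvidraco (adjusted p = 0.287). Next by level were ola-miR-7_R-1_1ss23TA, a variant of miR-7a (r = 0.93), and dre-miR-129-5p_R-1 (r = 0.87), which stood at 9.88 to 56.2. Next by deviation were oan-let-7e-5p_L+1R-1 (r = 0.96) and again ola-miR-7_R-1_1ss23TA (r = 0.95). That variant differs from ssa-miR-7a-5p in its last base only. It reached 10 only in hybrid library 2 (39.4) and P. fulvidraco libraries 2 (21.7) and 3 (10.2), which were also the highest for tni-miR-375. It thus passed the filter only through these libraries, and its r is no separate support. In the order for tni-miR-375, ccr-miR-217 came in place 34 by level (r = 0.60) and 44 by deviation, and dre-miR-7b_R+3 in place 131 (r = -0.02) and 13.

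For ccr-miR-217 the closest sequence was fru-miR-216b, with r = 0.95 for levels and 0.98 for deviations. It stood at 5416, 5458 and 3722 in hybrid libraries, at 3839, 2489.5 and 2169.9 in P. vachelli and at 3524, 2550.3 and 5123 in P. fulvidraco. miR-217 and miR-216b were lowest of their line in P. fulvidraco library 2, where miR-375 was above its line mean. fru-miR-216b gave log2 fold changes of 0.80 in the hybrid against P. vachelli (SE 0.29, adjusted p = 0.0563), 0.42 in the hybrid against P. fulvidraco (adjusted p = 0.375) and -0.38 in P. vachelli against P. fulvidraco (adjusted p = 0.287). Next were aca-miR-144-5p_L+1R+1 (r = 0.74) and cgr-miR-155_R+1 (r = 0.69) by level. By deviation cgr-miR-100-5p_R+1 (r = 0.91) was among the 3 closest. These correlations describe 9 libraries that share 1 scaling per library, and they carry no test.

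**Figure D3:**
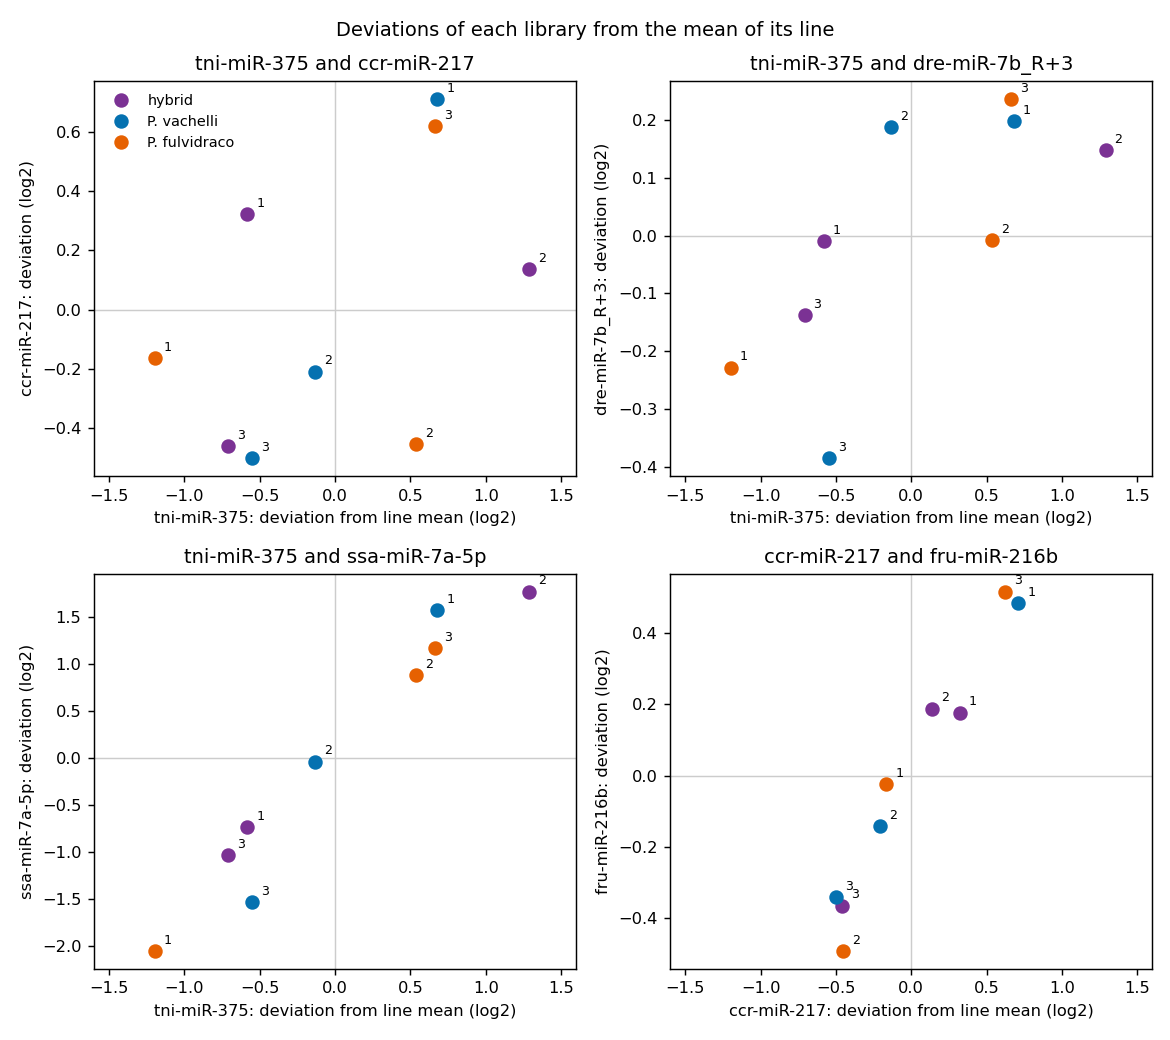
Deviation of each library from the mean of its line (both axes, log2 of the value plus 1), with the library number beside each point, for 4 pairs of miRNAs. The pairs tni-miR-375 with ssa-miR-7a-5p (r = 0.97) and ccr-miR-217 with fru-miR-216b (r = 0.98) lie near a line, while tni-miR-375 with ccr-miR-217 (r = 0.47) scatters, with hybrid library 1 and P. fulvidraco library 2 in opposite corners.

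The miR-7b arms had other neighbours. By level dre-miR-7b_R+3 was closest to oan-let-7e-5p_L+1R-1 (r = 0.92), ssa-miR-130d-2-5p_2ss9AT13CT (r = 0.90) and ccr-miR-10c_R-1 (r = 0.90). By deviation it was closest to dre-miR-30e-5p_R+2 (r = 0.93), ssa-miR-130d-2-5p_2ss9AT13CT (r = 0.92) and dre-miR-222a-5p (r = 0.89). dre-mir-7b-p3_1ss21TC was closest by level to hsa-miR-3120-3p_R+2 (r = 0.95), chi-miR-190a-3p_L+1 (r = 0.93) and ssa-miR-144-3p_R+1 (r = 0.92). By deviation its closest were gga-miR-222b-5p_R-7 (r = 0.91), ssa-miR-130a-2-3p_R-1 (r = 0.91) and ccr-miR-130c_R-1 (r = 0.88). Of these, gga-miR-222b-5p_R-7 was low, at 5.59 to 18.6, near the filter value of 10. None of the sequences of the miR-375, miR-217, miR-216 and miR-7 families was among the 3 closest to either arm. By deviation, ssa-miR-7a-5p came in place 9 of 277 for dre-miR-7b_R+3 (r = 0.84) and in place 274 for dre-mir-7b-p3_1ss21TC (r = -0.85). There tni-miR-375 came in places 18 and 266. By level, ssa-miR-7a-5p came in places 115 (r = 0.17) and 132 (r = 0.09).

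Ratios within a library do not depend on how libraries were scaled. tni-miR-375 over ccr-miR-217 was 0.143, 0.593 and 0.225 in hybrid libraries 1 to 3, 0.137, 0.147 and 0.135 in P. vachelli, and 0.136, 0.553 and 0.287 in P. fulvidraco. The 3 P. vachelli libraries lay close together although both miRNAs differed over 2-fold between them, and 1 library of each other line lay in the same range. In the other 4 libraries miR-375 was higher relative to miR-217. The mean log2 ratio was -1.91 in hybrid libraries, -2.84 in P. vachelli and -1.85 in P. fulvidraco. The exact two-sided permutation p was 0.2 for the hybrid against P. vachelli, 1.0 for the hybrid against P. fulvidraco and 0.3 for P. vachelli against P. fulvidraco, where 3 against 3 libraries cannot go below 0.1. The difference in mean log2 ratio between the hybrid and P. vachelli was 0.94, and 0.36 without hybrid library 2. Between P. vachelli and P. fulvidraco it was -0.996, with -1.51 without P. fulvidraco library 1 and -0.50 without P. fulvidraco library 2. ccr-miR-217 over fru-miR-216b stayed between 1.32 and 1.89 in all 9 libraries, although each miRNA alone ranged over more than 2-fold; this pair, and the next with ssa-miR-7a-5p, were set side by side after their values were seen. tni-miR-375 over ssa-miR-7a-5p ran from 4.74 in hybrid library 2 to 18.8 in P. vachelli library 3, and hybrid library 2 was the highest for both miRNAs and P. vachelli library 3 the lowest.

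The 2 arms of miR-7b stood in a ratio, 5′ over 3′, of 3.83, 5.19 and 3.47 in hybrid libraries, 11.5, 9.89 and 5.09 in P. vachelli and 2.57, 3.65 and 3.79 in P. fulvidraco. The 5′ arm was the more abundant in every library, and P. vachelli lay above P. fulvidraco throughout while its library 3 overlapped the hybrid. The mean log2 ratio was 2.04 in hybrid libraries, 3.06 in P. vachelli and 1.72 in P. fulvidraco. The exact two-sided permutation p was 0.2 for the hybrid against P. vachelli, 0.4 for the hybrid against P. fulvidraco and 0.1, the smallest possible, for P. vachelli against P. fulvidraco.

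**Figure D4:**
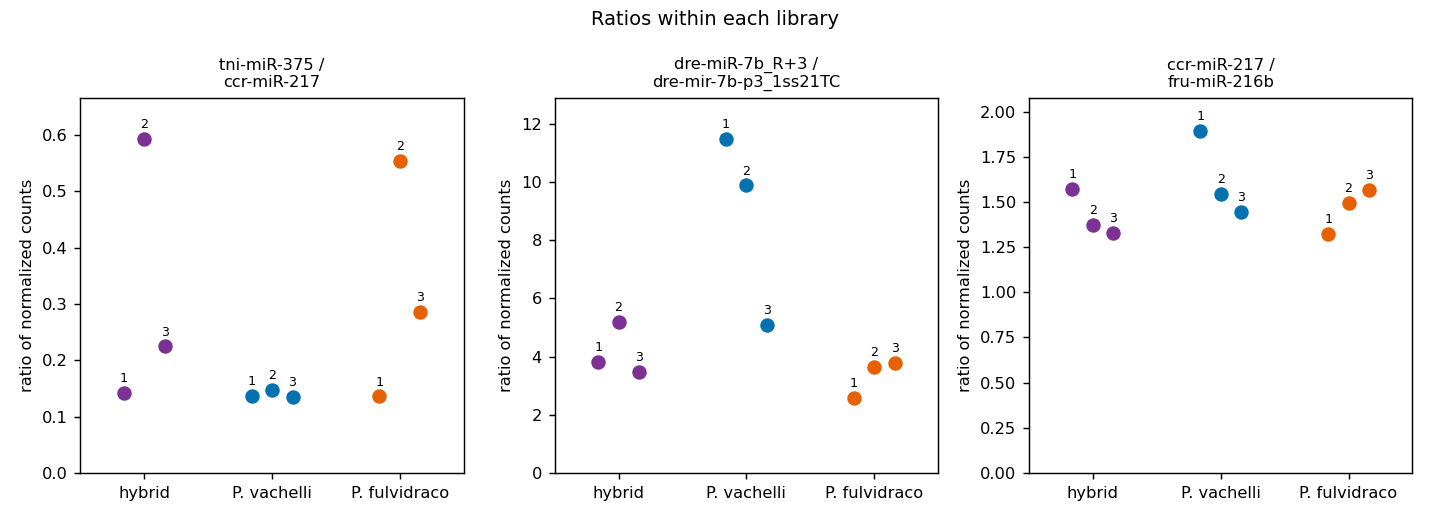
Ratios of 2 miRNAs within each library (vertical axes, linear from 0), by line, with the library number above each point. The 3 P. vachelli libraries lie together at 0.135 to 0.147 for tni-miR-375 over ccr-miR-217, and ccr-miR-217 over fru-miR-216b stays within 1.32 to 1.89 in all lines.

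Marker miRNAs of other tissues were read beside the members, as deposited. The total over distinct sequences was 6994970 to 7650641 in P. vachelli libraries, 5652171 to 5996601 in hybrid and 5678167 to 6254120 in P. fulvidraco. The sums of the lists were not rescaled to equal totals, so the higher totals of P. vachelli enter them. The pancreas list (miR-375, miR-217, miR-216 and miR-7) held 10 sequences, 7 of them tested, with summed values of 10506 to 19037 in hybrid libraries, 6375 to 13160.2 in P. vachelli and 9507 to 16673 in P. fulvidraco. The only calls on it were those of dre-mir-7b-p3_1ss21TC, and its median log2 fold changes were 0.80 in the hybrid against P. vachelli, 0.32 in the hybrid against P. fulvidraco and -1.01 in P. vachelli against P. fulvidraco. The summed erythroid and muscle lists were, like dre-mir-7b-p3_1ss21TC, lowest in P. vachelli, without overlap with the other lines. Of the defining muscle markers, miR-1 and miR-133 were also lowest there without overlap, at 122.2 to 189.7 and 147.4 to 170.2 in P. vachelli. The defining miR-206 went the other way, at 98.5 to 110.7 in P. vachelli, 37.5 to 57.8 in hybrid and 24.2 to 53.6 in P. fulvidraco libraries. Lines did not overlap for 46.8% of all 278 sequences in the hybrid against P. vachelli and 59.4% in P. vachelli against P. fulvidraco. The erythroid list summed to 58720.5 to 97610.2 in hybrid libraries, 37915 to 42304 in P. vachelli and 78963 to 94637 in P. fulvidraco. Of its 8 sequences tested, 5 were higher in the hybrid than in P. vachelli. In P. vachelli against P. fulvidraco 5 of them were lower and 2 higher. Within lines, r with dre-mir-7b-p3_1ss21TC was 0.36 for the erythroid list, 0.81 for the neural and pituitary list, 0.65 for the liver list, -0.62 for the epithelial list and 0.12 for the muscle list. The neural and pituitary list summed to 31987, 28382 and 31778 in hybrid libraries 1 to 3, 35008, 37126.5 and 39921.5 in P. vachelli and 40406, 31762 and 34037 in P. fulvidraco, and its deviations ran against those of tni-miR-375 (r = -0.92 over 9 libraries). Its defining members miR-124, at 238 to 428, and miR-9, at 82.8 to 570.1, were present in every library. With tni-miR-375, miR-124 gave an r of -0.62 and miR-9 an r of 0.43, so that these coefficients had opposite signs. Both miRNAs are a small share of the list's sum. The epithelial list summed to 15106 to 15666 in hybrid libraries, 18259.6 to 20109 in P. vachelli and 13344 to 15004 in P. fulvidraco. Its r with tni-miR-375 was 0.61, where its defining miR-200 gave 0.63 and miR-203 gave -0.02. These 2 stood at 11280.1 to 17074 and 94.2 to 218.7, so that miR-203 is a small share of the sum. The muscle list summed to 810.1 to 1743 in hybrid libraries, 444 to 485 in P. vachelli and 925 to 1213 in P. fulvidraco, with r of -0.13. The liver list summed to 2079832 to 2163079.9 in hybrid libraries, 2750422 to 3279762.5 in P. vachelli and 2129294.5 to 2430008 in P. fulvidraco, with r of -0.24. The erythroid list gave r = -0.57 with tni-miR-375. With ccr-miR-217, r was 0.08 (liver), 0.05 (epithelial), -0.30 (neural and pituitary), -0.00158 (erythroid) and -0.16 (muscle). With dre-miR-7b_R+3 it was -0.49, 0.68, -0.71, -0.38 and 0.00807 in the same order. The defining epithelial and neural members differed among themselves. With ccr-miR-217, r was 0.17 for miR-200, 0.52 for miR-203, -0.78 for miR-124 and 0.04 for miR-9. With dre-miR-7b_R+3 these gave 0.73, -0.17, -0.62 and 0.57, and with dre-mir-7b-p3_1ss21TC -0.62, 0.09, 0.56 and -0.29. In the hybrid against P. vachelli, 0 sequences were higher and 4 lower of 13 tested on the liver list, and 0 and 4 of 8 on the epithelial list. Of 13 on the neural and pituitary list 1 was higher and 1 lower, and of 6 on the muscle list 3 and 2. Over all 278 sequences 15.5% were called higher and 19.4% lower there, a split that turned with equal totals. In P. vachelli against P. fulvidraco, 6 were higher and 1 lower on the liver list, and 6 and 0 on the epithelial list. On the neural and pituitary list 3 were higher and 4 lower, and on the muscle list 2 and 3. Over all sequences 30.9% were called higher and 20.5% lower in that comparison, a split that also turned with equal totals. The counts on the lists were not repeated with equal totals. No defining marker was at 0. The part of these tissues in the values of the members was not tested.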

How the data were processed

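Small RNA of 9 juvenile liver libraries was measured. Per the labels, TruSeq Small RNA libraries were sequenced on an Illumina HiSeq and the reads were cleaned by the authors with ACGT101-miR. The deposited signal per library and entry is, per the file headers, a normalized count. How it was scaled, and against which miRNA set and genome build, is not given in the sources used here. Of 888 entries, 160 repeats of a sequence, with equal values, were dropped, leaving 728, and each member had a single entry. Low values of single-entry sequences fell on multiples of 1 step, taken as 1 read (85.8% to 93.8% of those under 30 lay within 0.1 read of one), from which reads were estimated. Of sequences with several entries 20.0% to 54.3% did, so the values were not tested as counts. The sums of lists and the totals over distinct sequences take the value of 1 entry per sequence. They are too low where the reads of a sequence were divided over its entries, which was not tested. Without molecular identifiers, the counting errors given in percent cover the counting of reads only. The intervals of log2 fold changes are those of limma and rest on the spread between libraries.

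All libraries were fitted with limma 3.58.1 (trend) in R 4.3.3 on log2(value + 1), with p-values adjusted by Benjamini and Hochberg over the 278 sequences that reached 10 in 3 or more libraries, and a threshold of 0.05. Deviations and ratios were computed with Python 3.11.15, numpy 2.4.6 and scipy 1.17.1. The limma fit and the permutation test were also run on simulated, independent normal values. These lack the scaling that all sequences of a library share, so they do not test its effect. The members and lists were chosen with earlier results of these data known. Named beside the members, by rule, are the 3 sequences closest to each by Pearson's r, other entries of their families, and marker lists for pancreas, liver, epithelium, neural and pituitary tissue, erythroid cells and muscle; 1 of the closest sequences is not reported here. Alternatives covered scaling, pseudocount, filter, trend, replicate block, 2 lines alone, all entries, family sums and each library left out.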

Additional observations from a re-analysis of the deposited data

How the results depend on the processing

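Of the results on members, the lower dre-mir-7b-p3_1ss21TC in P. vachelli than in P. fulvidraco kept its call under every alternative run. In the hybrid against P. vachelli its value stayed at 0.59 but lost the call with no filter, with the replicate block and with only the 2 lines fitted, and ran from 0.45 to 0.75 with single libraries left out. tni-miR-375 was called in that comparison with equal totals (1.90), with equal totals without the most abundant miRNA (1.83) and without P. fulvidraco library 1 (1.55), and ranged from 0.91 to 1.90 with libraries left out. With libraries left out, ccr-miR-217 ranged there from 0.36 to 0.97 and dre-miR-7b_R+3 from -0.62 to -0.33. At equal totals ccr-miR-217 gave 0.96 in the hybrid against P. vachelli (limma, adjusted p = 0.0502). In the hybrid against P. fulvidraco, tni-miR-375 ranged from -0.32 to 0.68 and dre-miR-7b_R+3 from -0.22 to 0.00844. In P. vachelli against P. fulvidraco, tni-miR-375 ranged from -1.83 to -0.90, ccr-miR-217 from -0.59 to 0.0770 and dre-miR-7b_R+3 from 0.21 to 0.51. Sums by family and arm turned dre-miR-7b_R+3 to 0.14, 0.11 and -0.0346 in the 3 comparisons of lines and to 0.13 against the mid-parent, since they add ssa-miR-7a-5p. Over all sequences, 54 were called in the hybrid against P. fulvidraco (31 to 59 with libraries left out) and 52 against the mid-parent (18 to 58). The mid-parent count was 21 with no filter, 30 with the replicate block and 81 with all entries.

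Equal totals moved the median log2 fold change of all sequences from -0.01 to 0.35 in the hybrid against P. vachelli, from -0.05 to -0.35 in P. vachelli against P. fulvidraco and from 0.06 to 0.25 against the mid-parent. With libraries left out, r ranged from -0.87 to -0.70 for tni-miR-375 with dre-mir-7b-p3_1ss21TC and from -0.94 to -0.49 for the 2 arms of miR-7b; both passed without P. fulvidraco library 2 or 3 (exact permutation, adjusted p = 0.0417). With the replicate block r was 0.86 for tni-miR-375 with ccr-miR-217 (exact permutation, adjusted p = 0.178). It was 0.92 for ccr-miR-217 with dre-miR-7b_R+3 (exact permutation, adjusted p = 0.0833), and no pair passed. Deviations of 2 of 9 same-numbered pairs of libraries correlated over 0.1, with r from -0.42 to 0.16 over the 9 pairs. Of the 9 libraries, 1 correlated best with its own number. Whether libraries of the same number shared a batch was not tested. With libraries left out, the log2 ratio of tni-miR-375 over ccr-miR-217 ran from 0.36 to 1.39 in the hybrid against P. vachelli, from -0.64 to 0.44 in the hybrid against P. fulvidraco and from -1.51 to -0.50 in P. vachelli against P. fulvidraco.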

Other observations

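Low entries of the same families are given here as values. ola-miR-7_R-1_1ss23TA, which differs from ssa-miR-7a-5p by A23T, counted from its 5′ end, stood at 3.87, 39.4 and 2.31 in hybrid libraries 1 to 3, at 7.52, 1.35 and 0.59 in P. vachelli and at 2.79, 21.7 and 10.2 in P. fulvidraco. Hybrid library 2 and P. fulvidraco library 2 were its highest. This sequence had 2 entries of equal value, and the values given are those of 1 entry. Over both entries an estimated 1 to 80 reads lay behind it in a library. ssa-miR-7a-7-3p_R+1, the opposite arm of a miR-7a precursor by its name, held an estimated 9 reads in hybrid library 2, 6 in P. fulvidraco library 2 and 0 to 3 in the others. tgu-miR-7-1-3p held 0 to 3 reads, and ssa-miR-375-3-5p_R-1_1ss12TC, of the opposite arm of miR-375, 1 read in P. fulvidraco library 2 and 0 in the other 8 libraries.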
